A study of Mus musculus with 7 samples.

Results

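The calcitonin gene-related peptide (CGRP) system was examined in single-nucleus RNA sequencing data of mouse small cell lung cancer. It was taken as 9 genes, matched by symbol among the 56941 genes of the 4 count matrices, and all 9 were found. The 4 peptide genes were Calca, Calcb, Adm and Grp, and the 5 receptor genes were Calcrl, Calcr, Ramp1, Ramp2 and Ramp3. The nuclei came from fresh-frozen endpoint lung tumors of 4 male mice. RP mice were Rb1 fl/fl Trp53 fl/fl, and RPC mice carried in addition the loss of Casp8 that the labels write as Casp8-/- and the study's methods describe as conditional. Both genotypes inhaled Ad5-CMV-Cre at 8 to 12 weeks of age, so that the recombinase was driven by a promoter active in many cell types and not only in neuroendocrine cells. Each genotype had 2 animals (RP1 and RP2, RPC1 and RPC2), and each of the 7 libraries pooled nuclei of all 4 animals. The animal was therefore the replicate, and a series of 4 values below gives the animals in the order RP1, RP2, RPC1, RPC2.

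CGRP and calcitonin are made from the same gene, Calca, by the use of alternative exons, and a related form of CGRP is made from the neighboring gene Calcb. The receptor is a pair of proteins, in which Calcrl together with Ramp1 binds CGRP, while Calcrl together with Ramp2 or Ramp3 binds adrenomedullin, the product of Adm. In the lung CGRP is a product of neuroendocrine cells and sensory nerve endings and a potent dilator of blood vessels, and gastrin-releasing peptide, encoded by Grp, is another peptide of neuroendocrine cells.

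Calca (chr7:114230712-114235592, minus strand, GRCm39) and Calcb (chr7:114317878-114322603, plus strand) lie 82.3 kb apart. The exons that encode the peptides are shown because they decide what a gene count can tell apart. The CGRP exon of Calca is exon 4 of 5 (chr7:114231678-114231834, 157 bases), the calcitonin exon is exon 4 of 4 in the other form (chr7:114232840-114233020, coding and 181 bases long), and the CGRP exon of Calcb is exon 4 of 5 (chr7:114321210-114321369, 160 bases). Capitals mark the bases that differ between the CGRP exons of Calca and Calcb.
Calca, CGRP exon: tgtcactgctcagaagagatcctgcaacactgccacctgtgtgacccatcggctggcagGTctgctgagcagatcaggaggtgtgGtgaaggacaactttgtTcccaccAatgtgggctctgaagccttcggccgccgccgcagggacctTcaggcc
Calca, calcitonin exon: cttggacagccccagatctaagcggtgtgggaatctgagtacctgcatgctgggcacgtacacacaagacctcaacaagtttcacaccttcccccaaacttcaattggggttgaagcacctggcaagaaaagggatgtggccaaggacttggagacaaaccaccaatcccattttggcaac
Calcb, CGRP exon: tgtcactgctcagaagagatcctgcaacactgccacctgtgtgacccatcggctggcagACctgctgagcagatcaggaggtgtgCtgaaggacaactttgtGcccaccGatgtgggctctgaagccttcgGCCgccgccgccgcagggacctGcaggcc
The CGRP exons of both genes were identical in 151 of 160 aligned columns (94.4%), with an identical run of 59 bases, and their whole coding sequences were 82.7% identical. A read that lies within such a run fits either gene, and the levels of Calcb below are uncertain to that extent. The calcitonin exon was not compared with Calcb or with other genes. The deposited counts are summed per gene, so CGRP and calcitonin transcripts of Calca were not separated. In the reference annotation used here Calca also overlaps Gm71828, a long noncoding RNA gene on the same strand that is not among the genes of the count matrices, so part of the counts of Calca could belong to it. Of the CGRP and calcitonin forms of Calca, the quantitative PCR primers of the study match as a pair the CGRP form alone. The forward primer tttgaggtcaatcttggaaagca lies across exons 2 and 3 of both forms. The reverse primer ctgagcagtgacactagagcc lies across exons 3 and 4 of the CGRP form alone. A match of the primers to Calcb or Gm71828 was not checked.

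The matrices held 8413 to 10865 nuclei and 32299909 to 72446861 transcripts per animal, and 38254 of 38353 nuclei passed the study's filters, with a median of 2223 to 3392 transcripts per nucleus. The RPC animals had more transcripts per nucleus than the RP animals, with medians of 2255, 2223, 3392 and 2767. Clustering was done without the 9 genes. It gave 7098 to 9174 tumor-like nuclei per animal, and 7 further classes had at least 20 nuclei in every animal (endothelial, macrophage or monocyte, smooth muscle or pericyte, T or NK cell, B cell, alveolar type 1 and alveolar type 2). The names were checked against marker lists. The 11 endothelial markers summed to 2858 to 5013 counts per 1000000 counts of the class (CPM) in endothelial-like nuclei and to 26.8 to 53.6 CPM in tumor-like nuclei, and no marker of these 8 classes was at 0 in its class. The 11 T or NK cell markers separated their class least, with 2021 to 2934 CPM against 887 to 1417 CPM in tumor-like nuclei. Every class also held neuroendocrine RNA, whose source was not tested. The 15 neuroendocrine markers reached 31.1% to 80.9% of their tumor-like level in the 7 other classes. In endothelial, macrophage and B cell-like nuclei this share was lower in clusters of ordinary depth than in clusters whose nuclei were more than 1.5 times as deep as the median of their animals. Values without these deep clusters, a limit chosen after the data were seen, are given beside the results they touch. Smooth muscle or pericyte-like nuclei formed 1 deep cluster and have no such value.

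Calca was the peptide gene of the tumor nuclei. In tumor-like nuclei its level was 772 and 704 CPM in the RP animals and 1795 and 1679 CPM in the RPC animals, from 19292 to 95024 counts per animal. Both RPC animals lay above both RP animals, with means of 738 ± 48.0 CPM in RP and 1737 ± 81.8 CPM in RPC (SD, n = 2). By its level over the 4 animals Calca stood at place 48 of the 20098 genes tested in tumor-like nuclei. The log2 fold change of RPC against RP was 1.17 (SE 0.17), a 2.26-fold higher level, with 1.80 to 2.83 at 1.96 SE to each side. In edgeR's quasi-likelihood test the unadjusted p of Calca was 0.00078 and its Benjamini-Hochberg adjusted p was 0.267, so the difference did not pass the threshold of 0.05. That test called 0 of 20098 genes in tumor-like nuclei (0%), and 3054 genes (15.2%) had an unadjusted p under 0.05. With DESeq2, the tool of the study, the log2 fold change of Calca was 1.22 with an adjusted p of 3.4e-05, and 649 of 17434 genes were called (3.72%), of which 346 were higher in RPC (1.98%). Without 1 animal at a time the log2 fold change was between 1.097 and 1.26 and the edgeR adjusted p between 0.14 and 0.62. Calca is among the genes the study singled out from these same libraries, so its higher level in RPC is not independent evidence.

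Calca was also read in technical parts of each animal. These parts are repeats of the same animals, so they describe technical spread and add no evidence on the genotypes. Nuclei of an animal were split over 2 or 3 barcoding wells and 7 sublibraries. Over the wells Calca was at 698 to 883, 540 to 840, 1534 to 2005 and 1676 to 1682 CPM in the 4 animals. Over the sublibraries it was at 723 to 822, 655 to 765, 1767 to 1839 and 1614 to 1721 CPM. Each well and each sublibrary of an RPC animal was above each of the RP animals.

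How many tumor-like nuclei held a Calca transcript was compared after each nucleus was thinned to 1000 transcripts. The share among RP animals was 46.7% (95% exact binomial interval 45.5% to 47.9%) and 43.1% (41.9% to 44.3%), and among RPC animals 75.1% (74.2% to 76.0%) and 71.4% (70.4% to 72.3%). The intervals cover counting error only, and thinning left out 140 to 791 shallower nuclei per animal. The RPC mean was 28.3 percentage points above the RP mean (73.2% ± 2.62 against 44.9% ± 2.55, SD, n = 2), and the exact two-sided permutation test over animals gave p = 0.333, the smallest value that 2 animals against 2 can give. Without thinning the shares were 68.3%, 65.8%, 93.9% and 88.8%.

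**Figure D1:**
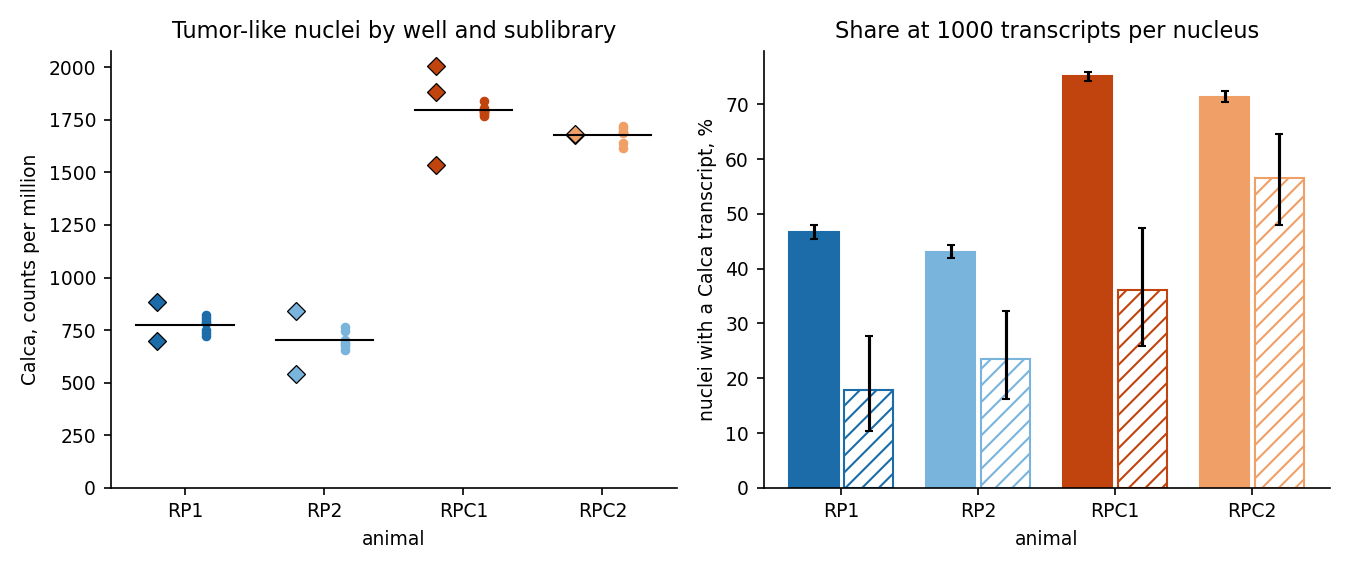
Calca in tumor-like nuclei by animal. Left, Calca level in CPM, with diamonds for barcoding wells, dots for sublibraries and a line for the level of the animal. All points of the RPC animals (1534 CPM and above) lie over all points of the RP animals (883 CPM and below). Right, percent of nuclei with a Calca transcript after thinning to 1000 transcripts, with filled bars for tumor-like and hatched bars for endothelial-like nuclei, and 95% exact binomial intervals as error bars. The filled bars stand at 43.1% to 46.7% in RP and 71.4% to 75.1% in RPC.

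Calca varied within each tumor as well. The tumor-like nuclei fell into 12 clusters, and in 9 of them more than 90% of the nuclei came from 1 animal, so clusters were compared within animals. Among clusters with at least 50 nuclei of the animal, Calca ranged from 229 to 1427 CPM over 7 clusters of RP1 and from 366 to 999 CPM over 6 clusters of RP2. In RPC1 the range was 1098 to 2190 CPM over 5 clusters, and in RPC2 it was 745 to 2340 CPM over 6 clusters. Clusters of RP and RPC animals therefore overlapped: the highest cluster of RP1 was above the lowest cluster of either RPC animal.

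The difference in Calca was set beside the general neuroendocrine program of the same nuclei. The 15 neuroendocrine markers, among them the granule proteins Chga and Chgb, summed to 8950, 7981, 10967 and 11904 CPM. Of these markers, 6 were higher in both RPC animals than in both RP animals, 1 was lower and 8 overlapped, where 24.7% of all genes tested were higher without overlap and 25.7% lower. Their median log2 fold change was 0.20 with a range of -0.20 to 0.68, against -0.01 over all genes tested, and none was called by edgeR. The log2 fold change of 1.17 of Calca lay above that range.

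The other peptide genes were near the lower end of detection in tumor-like nuclei. Calcb, which encodes the second form of CGRP, was at 6.82, 4.67, 5.14 and 6.44 CPM, from 128 to 294 counts. The genotypes overlapped, and its log2 fold change was -0.05 (SE 0.32, edgeR adjusted p = 0.95). Divided by the length of the gene, since nuclear RNA includes introns, Calca had a mean level of 254 CPM per kb of gene span in tumor-like nuclei and Calcb one of 1.22 CPM per kb. In nuclei thinned to 1000 transcripts a Calcb transcript was found in 0.394% to 0.883% of nuclei with Calca and in 0.255% to 0.506% of nuclei without it. The share was higher with Calca in 4 of 4 animals, and the exact intervals of both shares overlapped in each animal. Because the CGRP exons of both genes are so alike, these nuclei cannot be told apart from nuclei in which reads of Calca were counted to Calcb.

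Adm, the precursor of adrenomedullin, had 18, 24, 43 and 13 counts in tumor-like nuclei, which is 0.28 to 0.88 CPM. Grp, whose product stimulates growth of small cell lung cancer in culture, had 5, 13, 4 and 13 counts, or 0.08 to 0.47 CPM. Both genes overlapped between the genotypes, with log2 fold changes of -0.53 (SE 0.58, edgeR adjusted p = 0.68) for Adm and -0.93 (SE 0.82, edgeR adjusted p = 0.60) for Grp. Grp therefore stood near the bottom of the genes tested, at place 19848 of 20098 by level, in tumors whose Calca stood at place 48.

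Calca was found in all 8 classes. Its mean level over the 4 animals was 554 CPM in alveolar type 1-like, 571 CPM in alveolar type 2-like, 719 CPM in macrophage or monocyte-like, 872 CPM in endothelial-like, 900.2 CPM in B cell-like, 918 CPM in smooth muscle or pericyte-like, 945 CPM in T or NK cell-like and 1238 CPM in tumor-like nuclei. Neighbors in this order overlapped over the animals, but within animals tumor-like nuclei were above each of the 7 other classes in 4 of 4 animals. The level in the other classes was set beside that of the neuroendocrine markers. In endothelial-like nuclei Calca was at 65.2% to 78.0% of its tumor-like level in the same animal, and the 15 neuroendocrine markers together were at 64.0% to 79.6%. Without the deep cluster Calca was at 27.5% to 44.4% and the markers at 29.5% to 43.9%. In macrophage or monocyte-like nuclei Calca was at 54.6% to 61.7% and the markers at 54.9% to 69.1%, and without the deep cluster at 14.3% to 31.9% and 14.6% to 30.8%. In B cell-like nuclei Calca was at 64.1% to 76.1% and the markers at 63.2% to 77.9%, and without the deep cluster at 10.3% to 36.5% and 18.0% to 24.3%. In smooth muscle or pericyte-like nuclei Calca was at 65.9% to 82.4% and the markers at 65.0% to 79.2%. The values lay further apart in single animals of the smaller classes. In T or NK cell-like nuclei of RP1 Calca was at 94.99% and the markers at 80.9%, in alveolar type 2-like nuclei of RPC2 at 59.0% and 36.2%, and in alveolar type 1-like nuclei of RP1 at 19.7% and 31.5%. The part of tumor RNA in these levels was not tested.

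**Figure D2:**
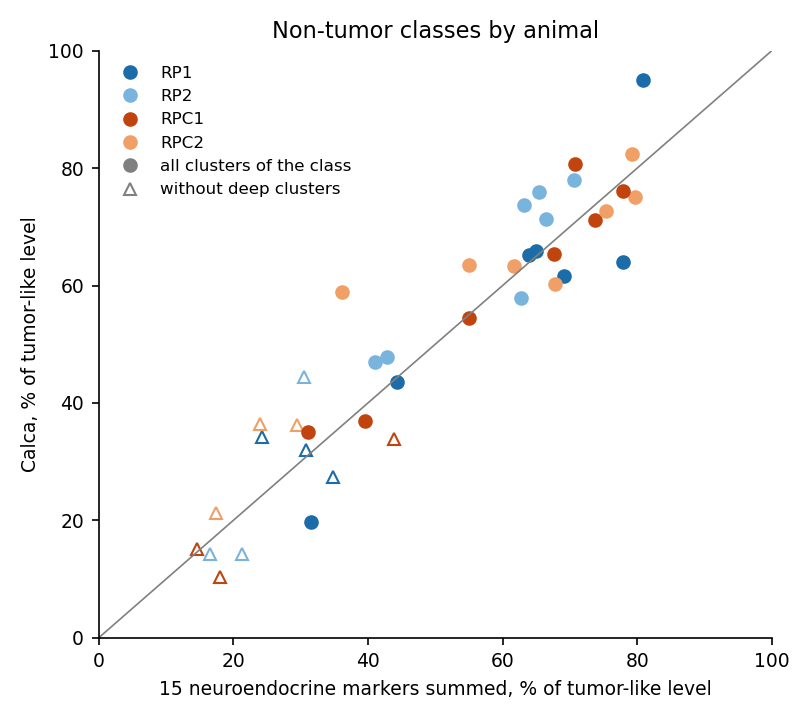
Calca against the 15 neuroendocrine markers in the 7 classes other than tumor-like nuclei, 1 point per class and animal. The horizontal axis is the summed level of the markers and the vertical axis the level of Calca, each as a percent of the level in tumor-like nuclei of the same animal, and triangles are the values without deep clusters. Endothelial-like nuclei lie at 64.0% to 79.6% of the markers and 65.2% to 78.0% of Calca, and at 29.5% to 43.9% and 27.5% to 44.4% without their deep cluster.

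The difference between the genotypes went the same way outside the tumor-like nuclei. Calca was higher in both RPC animals than in both RP animals in each of the 7 other classes fitted, with log2 fold changes of 0.86 to 1.70 and edgeR adjusted p-values of 0.11 to 0.60. Such a pattern was common: the share of genes higher in RPC without overlap was 22.2% in endothelial, 22.4% in macrophage or monocyte, 23.3% in smooth muscle or pericyte, 19.4% in T or NK cell, 21.5% in B cell, 19.4% in alveolar type 1 and 21.4% in alveolar type 2-like nuclei. EdgeR called 0.0879%, 0.00856%, 0.0411%, 0%, 0.169%, 0% and 0.288% of the genes tested in the same order of classes. In endothelial-like nuclei Calca was at 503, 549, 1173 and 1261 CPM. A test of the difference between the effects in tumor-like and endothelial-like nuclei of the same animals gave 0.04 on the log2 scale (SE 0.23, edgeR adjusted p = 1), where 57 of 18877 genes were called (0.302%). Calca in endothelial-like nuclei was at 65.2% to 78.0% of its tumor-like level in the same animal, and the neuroendocrine markers at 64.0% to 79.6%. This test therefore cannot tell Calca of endothelial cells from tumor RNA in their class, and no conclusion is drawn from it.

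Calcrl, the receptor protein shared by CGRP and adrenomedullin, was the gene of the system with the clearest class. In endothelial-like nuclei its level was 483, 522, 797 and 624 CPM, from 221 to 735 counts, a mean of 607 ± 140 CPM (SD, n = 4). The next of the 8 classes was macrophage or monocyte-like nuclei with a mean of 17.7 ± 7.43 CPM, 34.2 times lower, and every animal's endothelial level was above every animal's macrophage level. Smooth muscle or pericyte-like (17.2 CPM), B cell-like (15.8 CPM) and T or NK cell-like nuclei (12.8 CPM) followed, and these overlapped with each other and with macrophages. Tumor-like nuclei had 1.05, 2.59, 1.68 and 3.64 CPM. After thinning to 1000 transcripts a Calcrl transcript was seen in 44.0%, 40.3%, 51.8% and 58.5% of endothelial-like nuclei, and in 0.063% to 0.339% of tumor-like nuclei, which serve as the level of background. Median depths before thinning were 2544 to 3790 transcripts in these endothelial-like nuclei and 2508 to 3389.5 in the tumor-like nuclei.

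**Figure D3:**
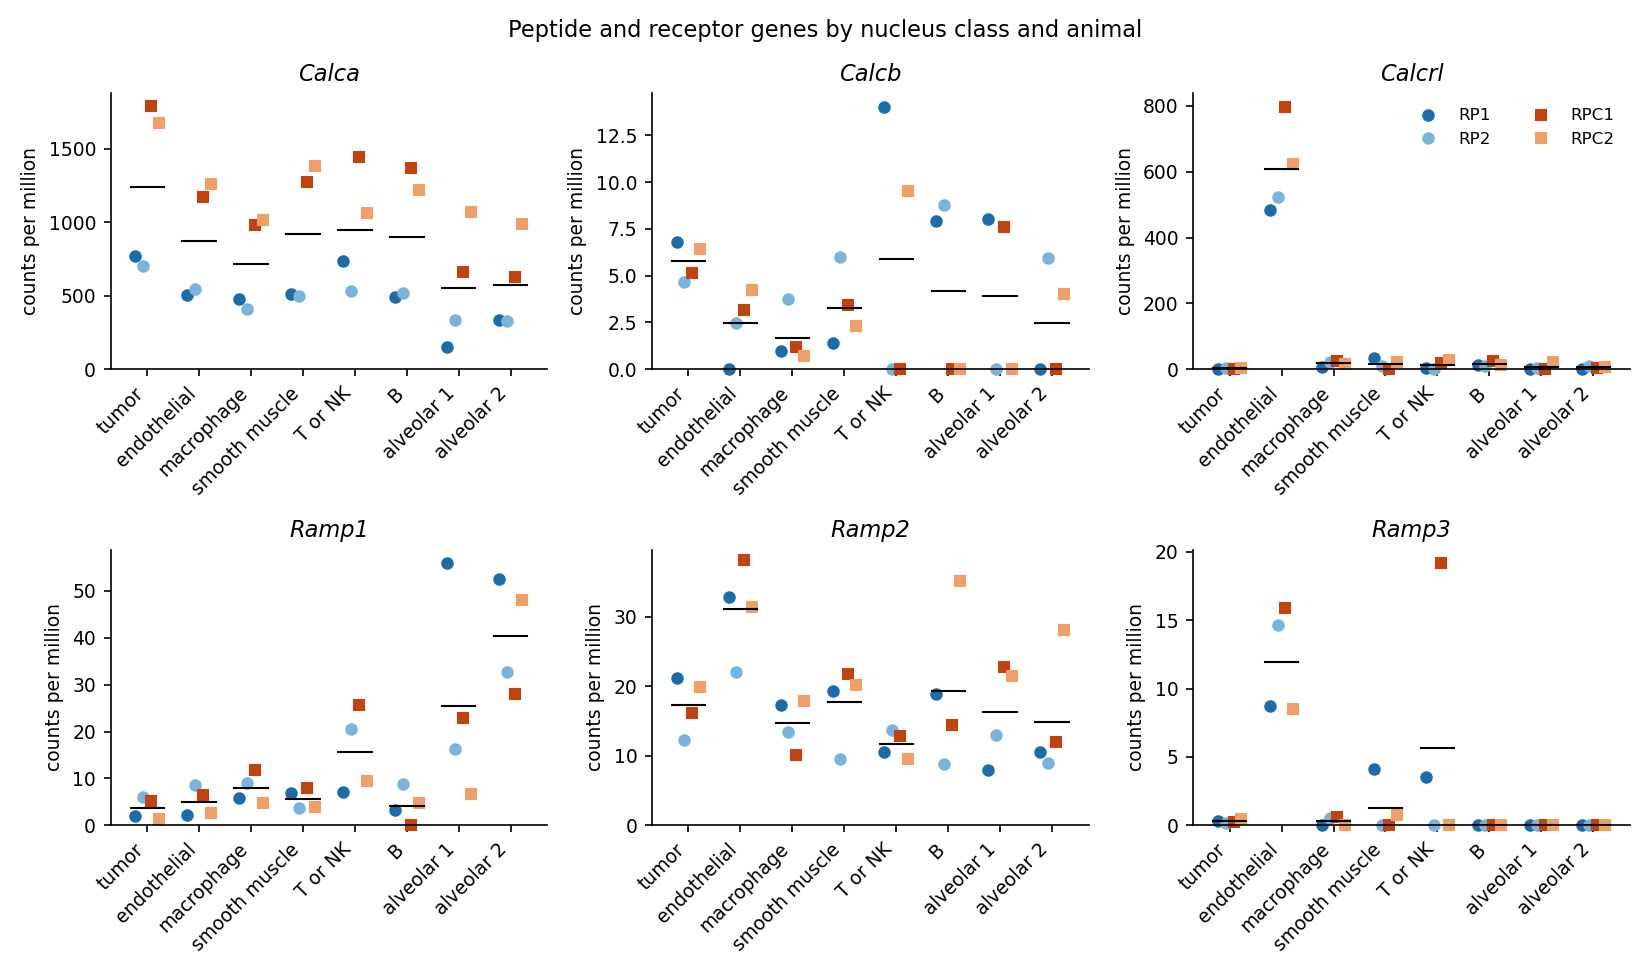
Levels of Calca, Calcb, Calcrl, Ramp1, Ramp2 and Ramp3 in 8 classes, 1 panel per gene. The vertical axis is CPM of the summed counts of a class, circles are RP animals, squares are RPC animals, and the line is the mean of the 4 animals. Calcrl stands at 483 to 797 CPM in endothelial-like nuclei and at 34.5 CPM or below in the other 7 classes, whereas Calca is present in each of the 8 classes, at 152 to 1795 CPM.

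The endothelial-like nuclei held a cluster of 305 nuclei of ordinary depth (median 1586 transcripts) and a deep cluster of 194 nuclei (median 7344.5 transcripts). The levels of the receptor genes differed between them. Calcrl was at 1671 CPM in the former and 275 CPM in the latter, a ratio of 6.08. Ramp3 was at 39.0 and 2.99 CPM, a ratio of 13.0, and Ramp2 at 57.9 and 21.8 CPM, a ratio of 2.65. The cluster of ordinary depth had Calcrl levels of 1013, 1596, 1388 and 2621 CPM, on which the genotypes overlapped. These values are a description, since the clusters were formed from the same nuclei.

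**Figure D4:**
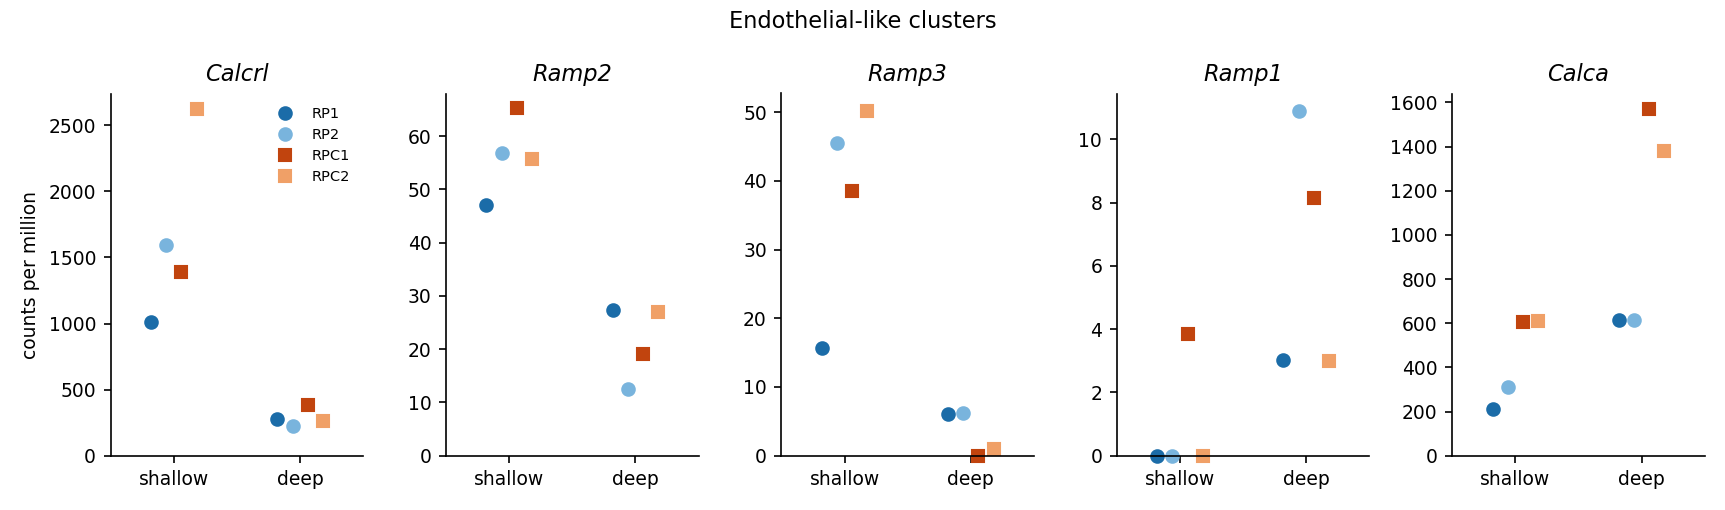
Calcrl, Ramp2, Ramp3, Ramp1 and Calca in both endothelial-like clusters, in CPM, with circles for RP and squares for RPC animals and the cluster of ordinary depth named shallow. Calcrl, Ramp2 and Ramp3 were higher in the cluster of ordinary depth (1671, 57.9 and 39.0 CPM over all animals) than in the deep cluster (275, 21.8 and 2.99 CPM), and Calca was higher in the deep cluster of each animal.

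The 3 Ramp genes encode the small membrane proteins that set which peptide Calcrl binds. Ramp2 was at 32.8, 22.0, 38.2 and 31.4 CPM in endothelial-like nuclei, a mean of 31.1 ± 6.74 CPM (SD, n = 4), and this was above the tumor-like level of the same animal (21.2, 12.3, 16.2 and 19.9 CPM) in 4 of 4 animals. The other 7 classes had mean levels between 11.6 and 19.4 CPM, and the next, B cell-like nuclei with 8.80 to 35.2 CPM, overlapped with endothelial-like nuclei. Without the deep cluster the endothelial level was 47.1, 56.8, 65.4 and 55.8 CPM from 6 to 17 counts. Ramp2 overlaps the gene Vps25 on the same strand, so part of its counts in any class could belong to that gene, and its level is uncertain. The same holds for Calcr, which overlaps the microRNA genes Mir653 and Mir489 on its strand.

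Ramp3 was low in all classes, and its highest mean level among the 8 was again in the endothelium. Endothelial-like nuclei had 4, 12, 10 and 10 counts, or 8.75, 14.7, 15.9 and 8.49 CPM, a mean of 11.96 ± 3.89 CPM (SD, n = 4). Tumor-like nuclei had 0.15 to 0.44 CPM, and T or NK cell-like nuclei had 1, 0, 3 and 0 counts. B cell-like, alveolar type 1-like and alveolar type 2-like nuclei had 0 counts, which allows up to 4.74 to 26.4 CPM per animal in B cell-like, 4.03 to 24.0 CPM in alveolar type 1-like and 8.93 to 31.5 CPM in alveolar type 2-like nuclei, so that a level like that of endothelial-like nuclei was not detectable there in all animals.

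Ramp1, the partner that gives Calcrl its affinity for CGRP, was not highest where Calcrl was. Endothelial-like nuclei had 1, 7, 4 and 3 counts of Ramp1 (2.19 to 8.56 CPM), and the cluster of ordinary depth had 1 count in all, beside 1241 counts of Calcrl. The class with the highest mean level was alveolar type 2-like nuclei with 52.5, 32.8, 28.0 and 48.1 CPM, a mean of 40.3 ± 11.8 CPM (SD, n = 4) from 5 to 12 counts per animal. Alveolar type 1-like nuclei followed with 56.0, 16.2, 22.8 and 6.72 CPM from 3 to 7 counts, and overlapped with alveolar type 2-like nuclei. T or NK cell-like nuclei had 7.02 to 25.6 CPM from 1 to 4 counts. Tumor-like nuclei had 1.96, 6.10, 5.10 and 1.34 CPM. Per kb of gene span the mean level of Calcrl in endothelial-like nuclei was 6.401 CPM, that of Ramp2 2.21 CPM and that of Ramp3 0.631 CPM, and that of Ramp1 in alveolar type 2-like nuclei was 0.889 CPM.

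Among the immune and stromal classes the receptor genes were sparse. In macrophage or monocyte-like nuclei Calcrl had 8, 43, 40 and 24 counts (7.70, 23.0, 23.7 and 16.5 CPM) and Ramp1 had 6, 17, 20 and 7 counts (5.77, 9.11, 11.8 and 4.81 CPM). Of the 3 clusters of the class, 1 had the highest level of both, with Calcrl at 63.7 CPM (47 counts) and Ramp1 at 23.0 CPM (17 counts), although RP1 had no count of Calcrl there. The leading genes of that cluster were Atp6v0d2, Ms4a8a and Chil3. In smooth muscle or pericyte-like nuclei Calcrl had 25, 9, 1 and 29 counts, which differed more between animals of 1 genotype than between genotypes. Fibroblast-like nuclei numbered 47 in all, too few for a fit, and gave 1, 4, 1 and 4 counts of Calcrl (98.0, 92.8, 12.5 and 55.9 CPM), which was below the endothelial level in every animal. Calcr, the calcitonin receptor, was at 1.36 to 2.15 CPM in tumor-like nuclei (51 to 83 counts) and had 0 to 8 counts per animal in each of the other 7 classes.

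Receptor genes were compared between the genotypes where they passed the filter on low counts. All 9 genes passed in tumor-like nuclei, 4 in endothelial-like, 4 in macrophage or monocyte-like, 3 in smooth muscle or pericyte-like, 2 in alveolar type 2-like nuclei and only Calca in the remaining 3 classes. In tumor-like nuclei 2 of 9 genes did not overlap between the genotypes (Calca higher and Calcr lower in RPC), where 50.4% of all genes tested did not overlap, and 1 of 9 (Calca) had an unadjusted p under 0.05. In endothelial-like nuclei edgeR called 0 of the 4 genes and 8 of 9097 genes overall (0.0879%), and Calca alone of the 4 had an unadjusted p under 0.05, as 11.4% of all genes tested did.

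Calcrl was higher in both RPC animals in endothelial-like nuclei, a pattern shared by 22.2% of the genes tested there. Its log2 fold change was 0.41 (SE 0.24, edgeR unadjusted p = 0.12, adjusted p = 0.53). The share of endothelial-like nuclei with a Calcrl transcript after thinning was 55.2% ± 4.73 in RPC and 42.2% ± 2.62 in RP (SD, n = 2), a difference of 13.0 points with an exact permutation p of 0.333, the smallest possible here. Without the deep cluster the log2 fold change was 0.52 (edgeR adjusted p = 0.68) and the animals overlapped. The difference in Calcrl therefore did not pass the threshold in edgeR, and the permutation test over 4 animals could not pass it.

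The partner genes gave no difference past the threshold. Ramp2 in endothelial-like nuclei had a log2 fold change of 0.29 (SE 0.38, edgeR adjusted p = 0.81) and Ramp3 one of -0.17 (SE 0.55, edgeR adjusted p = 0.93), with overlapping genotypes. In macrophage or monocyte-like nuclei the values were 0.19 (SE 0.49) for Calcrl, 0.02 (SE 0.57) for Ramp1 and -0.22 (SE 0.44) for Ramp2, with edgeR adjusted p-values of 0.88 to 0.99. Ramp1 in alveolar type 2-like nuclei had -0.04 (SE 0.56, edgeR adjusted p = 0.99). In tumor-like nuclei the receptor genes ranged from -0.39 (Calcr, SE 0.35, edgeR adjusted p = 0.61) to 0.53 (Ramp3, SE 0.61, edgeR adjusted p = 0.69). The errors of these values leave room for changes of the size seen for Calca in several of them, so a lack of difference is not shown.

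**Figure D5:**
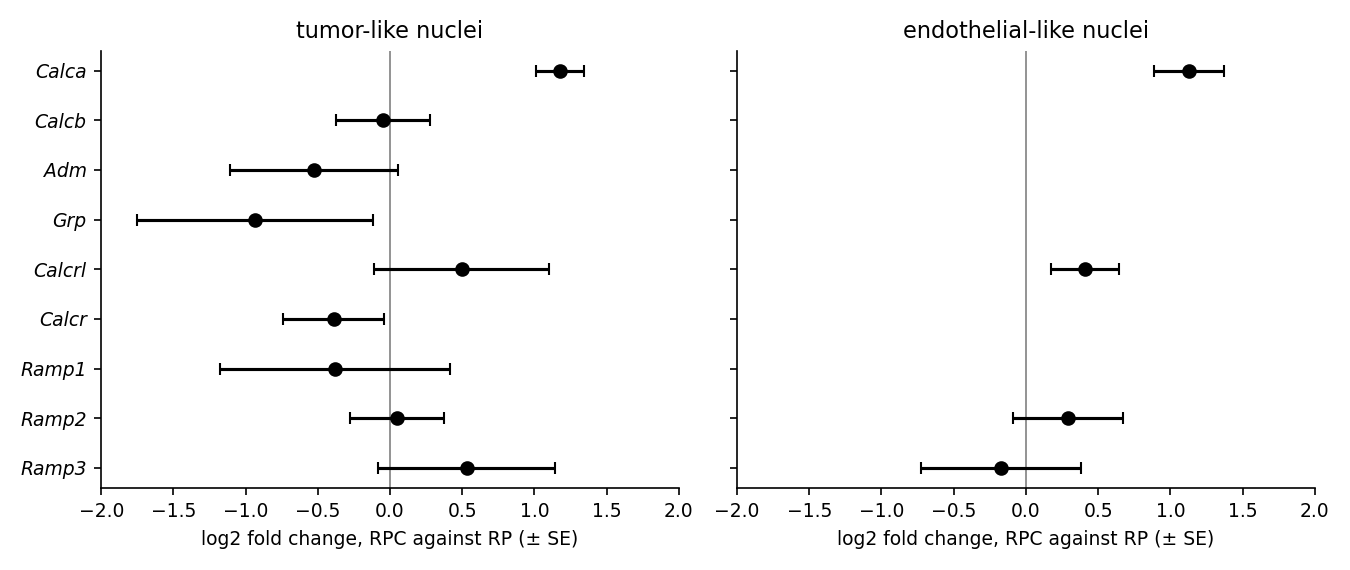
Log2 fold change of RPC against RP with its SE for the 9 genes in tumor-like nuclei and for the 4 genes tested in endothelial-like nuclei. Bars are 1 SE to each side. Calca lies at 1.17 and 1.13, and Calcrl in endothelial-like nuclei at 0.41. The other genes lie between -0.93 and 0.53.

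Genes with a similar pattern were sought over 28 profiles (class by animal, at least 50 nuclei each, 9 classes) among 14421 genes, by Pearson correlation of log2(CPM + 1). The profiles share animals and libraries, so the values describe these data only. Among those most like Calca were Tnr (r = 0.949) and Kcnma1 (r = 0.929). Those most like Calcrl were Egfl7 (r = 0.899), an endothelial marker used for naming the class, Hspa12b (r = 0.892) and Dipk2b (r = 0.890). Ramp2 was most like Mmrn1 (r = 0.715), a gene of lymphatic endothelium, Icam2 (r = 0.701) and Enpp2 (r = 0.690), and Ramp1 was most like Swt1 (r = 0.837), Mlph (r = 0.835) and Pcx (r = 0.834). Grp was too low to be compared.

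Of the genes that process and pack peptide hormones, all 11 were tested in tumor-like nuclei. None was called by edgeR, 9 of 11 had a positive log2 fold change, 3 were higher at an unadjusted p under 0.05 (Pcsk1, Scg3 and Resp18, the last pair named after their values were seen) where 7.44% of all genes were, and the median log2 fold change was 0.32 against -0.01 over all genes. Without overlap, 6 of the 11 genes were higher in RPC and 2 were lower, where 24.7% and 25.7% of all genes tested were. Scg2, Scg3, Chga, Chgb and Resp18 are also among the 15 neuroendocrine markers above, so these lists are not independent. Pcsk1, the convertase that makes the first cuts in many prohormones, was at 308, 476, 784 and 702 CPM. Both RPC animals were higher, with a log2 fold change of 0.92 (SE 0.25, edgeR adjusted p = 0.28). The granule protein gene Scg2 was at 39.3, 78.7, 70.9 and 115 CPM and overlapped (0.65, SE 0.40, edgeR adjusted p = 0.46). Levels of list genes are scaled by edgeR's normalization factors.

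Of the 5 genes for peptide clearance 4 were tested and none was called, 1 was lower at an unadjusted p under 0.05 (7.75% of all genes), and the median log2 fold change was 0.04. Ece1, an endopeptidase that cleaves CGRP in endosomes, was at 379, 360.3, 219 and 226 CPM and lower in both RPC animals (-0.73, SE 0.13, edgeR adjusted p = 0.27, DESeq2 adjusted p = 0.046). Ide, another peptidase, was at 145, 119, 56.4 and 134 CPM and overlapped (-0.47, SE 0.41, edgeR adjusted p = 0.60).

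All 26 genes of receptor coupling and cAMP signaling were tested, with a median log2 fold change of -0.09, 2 higher (Adcy2 and, named after its values were seen, the kinase subunit Prkacb) and 1 lower (Arrb2) at an unadjusted p under 0.05, where 7.44% of all genes were higher and 7.75% lower, and none called by edgeR. Adcy2, an adenylyl cyclase, was at 228, 425, 757 and 779 CPM and higher in both RPC animals (1.24, SE 0.32, edgeR adjusted p = 0.28, DESeq2 adjusted p = 0.024). Arrb2, an arrestin that uncouples active receptors, was at 66.7, 54.6, 29.6 and 32.4 CPM and lower in both RPC animals (-0.97, SE 0.17, edgeR adjusted p = 0.27, DESeq2 adjusted p = 0.015). Of the 6 other peptides and receptors of the calcitonin and bombesin families, 4 were tested, all below 4 CPM with a median log2 fold change of -1.15 and none called. Of these, 2 were lower at an unadjusted p under 0.05 (7.75% of all genes) and are named after their values were seen: Adm2 with 31, 11, 5 and 7 counts (-2.67, SE 0.69) and Iapp, the gene of amylin, with 47, 43, 25 and 26 counts (-1.71, SE 0.36). Of the 5 other genes of the count matrices within 200 kb of Calca, 3 were tested in tumor-like nuclei, and Cyp2r1 (0.01, SE 0.95) and Gm15500 (-0.21, SE 0.53) overlapped between the genotypes like Calcb.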

How the data were processed

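Lung tumor nuclei of 2 RP and 2 RPC mice were sequenced after split-pool barcoding (Parse Evercode), with 7 libraries that each pool all 4 animals. The authors ran the Parse pipeline, which aligned reads to GRCm39 with Ensembl genes and assigned nuclei to animals, and the deposited values are raw counts of transcripts per nucleus and gene, not normalized, with 1 matrix per animal. The limits of the study (at least 300 counts, at most 10% mitochondrial counts and at most 12000 genes) left 8363, 8874, 10853 and 10164 nuclei in RP1, RP2, RPC1 and RPC2, more than the study states for 3 of the 4 animals. No barcode was shared between animals. Doublets were not called beyond these limits.

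Nuclei were clustered without the 9 genes (2000 variable genes, 20 principal components, Leiden resolution 0.4; Python 3.11.15, scanpy 1.11.5, leidenalg 0.10.2) and named X-like by marker lists. The naming rule was set after clusters were seen, and differences from the study may come from these rebuilt names. Classes come from clustering the same nuclei, so differences between classes are a description with no test. Levels are CPM of the counts summed per animal and class. RPC was tested against RP on those sums with edgeR 4.0.16 (quasi-likelihood, TMM, filterByExpr, two-sided, R 4.3.3), with adjusted p over all genes tested, and DESeq2 1.42.0 was an alternative. The design was 2 animals against 2, with no covariate. The edgeR fits of tumor-like and endothelial-like nuclei were tested on simulated data, and the other fits were not. Exact permutation tests compared shares. Exon sequences were read from the reference genome of the same build, and primers from the study's supplementary table. All 9 genes are named, and from each wider list the 2 with the largest change at an average log2 CPM of at least 3, since edgeR called none. The members and lists were chosen with earlier results of these data known. Depth was 32299909 to 72446861 transcripts per animal. Intervals cover counting error only, and genes with a few counts per class carry little precision. The edgeR p-values rest on 2 animals per genotype and on a spread that is estimated partly from the other genes tested.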

Additional observations from a re-analysis of the deposited data

Results flagged for a closer look

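Calcb in tumor-like nuclei of RPC2 was at 3.50 CPM in 1 of 7 sublibraries, against 6.31 to 8.21 CPM in the others, a gap of 0.596 of the whole range, which marks that sublibrary as far from the rest. It was the only one of 15 groups tested in this way, and chance marks about 1 in 20 groups. Nuclei of 4 clusters were put in no class and enter no comparison, and signal was found in them: Calca had a mean level of 897 CPM over the 4 animals (517 to 1414 CPM) and Ramp2 one of 24.5 CPM (16.1 to 31.7 CPM).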

How the results depend on the processing

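The log2 fold change of Calca in tumor-like nuclei kept its sign under each of the 15 alternatives, from 1.097 to 1.29, and passed the threshold with DESeq2 alone. In the other 7 classes it kept its sign too, and passed the threshold under DESeq2 in 5 of them, without a filter in 6 and without 1 animal in endothelial, B cell and alveolar type 2-like nuclei, where fewer samples were tested. The animals' numbers do not pair them (correlation of same-numbered deviations -0.05): with a replicate block 0 genes were called in tumor-like nuclei and Calca was at 1.18 (adjusted p = 0.36), and this block changed no call.

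Counts of genes called varied with the settings, and the cause was not tested. With DESeq2 they were 649 in tumor-like nuclei, 28 in endothelial, 36 in macrophage, 29 in smooth muscle, 2 in T or NK, 21 in B cell, 8 in alveolar type 1-like nuclei and 7 for the difference between tumor-like and endothelial-like nuclei. Without the filter they were 4 in tumor-like nuclei, 261 in endothelial, 434 in macrophage, 384 in smooth muscle, 47 in T or NK, 104 in B cell, 48 in alveolar type 1 and 80 in alveolar type 2-like nuclei. Without 1 animal they ranged from 0 to 4 in tumor-like nuclei (4 without RPC2), 20 to 278 in endothelial (278 without RPC1), 2 to 147 in macrophage (147 without RPC2), 9 to 21 in smooth muscle (21 without RPC1), 0 to 69 in T or NK (69 without RP2), 10 to 139 in B cell (139 without RP2), 0 to 47 in alveolar type 1 (47 without RPC2) and 38 to 87 in alveolar type 2-like nuclei (87 without RP1), and from 43 to 100 for the difference between both classes (100 without RP2). At Leiden resolution 0.8 they were 7 in B cell, 1 in alveolar type 1 and 0 in alveolar type 2-like nuclei. Without deep clusters they were 0 in endothelial, 0 in macrophage and 5 in B cell-like nuclei.

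Mean levels in endothelial-like nuclei were higher when each nucleus had the same weight (Calcrl 1415 CPM, Ramp2 60.1 CPM, Ramp3 21.4 CPM) and without the deep cluster (1655, 56.3 and 37.4 CPM). Signs turned for low genes, and also for Ide and for the difference in Calca between classes, and none of these was called. In tumor-like nuclei Calcb turned without the filter (0.018), at resolution 0.8 (0.0054) and without 1 animal (-0.31 to 0.27), Calcr after thinning (0.086), Ramp2 in even sublibraries (-0.0089), after thinning (-0.037) and without 1 animal (-0.30 to 0.51), and Ramp3 over all kept nuclei (-0.19). Without 1 animal the range also crossed 0 for Adm (-1.45 to 0.030), Calcrl (-0.17 to 1.26), Ramp1 (-1.62 to 0.64) and Ide (-1.21 to 0.027). In other classes it crossed 0 for Ramp2 (-0.029 to 0.58) and Ramp3 (-0.55 to 0.31) in endothelial, Calcrl (-0.31 to 1.27), Ramp1 (-0.71 to 0.46) and Ramp2 (-0.74 to 0.19) in macrophage, Calcrl (-4.22 to 0.15) in smooth muscle and Ramp1 (-0.52 to 0.32) in alveolar type 2-like nuclei, and for the difference in Calca between tumor-like and endothelial-like nuclei (-0.19 to 0.20). Calcrl in macrophage-like nuclei turned without deep clusters (-0.078), Ramp1 there at resolution 0.8 (-0.049), and Ramp1 in alveolar type 2-like nuclei without the filter (0.00014). Apart from Calca, and Calcrl in endothelial-like nuclei, the genes had few counts in most classes. Ramp2 in tumor-like nuclei had 336 to 906 counts per animal, and its sign turned as well. The part of depth in these changes of sign was not tested.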

Other observations

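The genes of cAMP signaling, which lie behind Calcrl in endothelial cells, were also read in endothelial-like nuclei. Of 26 genes 25 were tested there, none was called by edgeR, 4 were higher and 1 was lower at an unadjusted p under 0.05 (11.4% of all genes tested passed in either direction), and the median log2 fold change was -0.01, as it was over all genes. The genes were named after their values were seen. Adcy4, an adenylyl cyclase, was at 149, 86.9, 59.8 and 37.7 CPM (in the order RP1, RP2, RPC1, RPC2) and lower in both RPC animals (-1.28, SE 0.35, edgeR adjusted p = 0.30), and it had 10 to 15 counts per animal in all tumor-like nuclei. Prkacb, a catalytic subunit of protein kinase A, was at 106, 93.3, 162 and 169.9 CPM (0.74, SE 0.22, edgeR adjusted p = 0.32), and the phosphodiesterase gene Pde4b was at 179.6, 171, 225 and 289 CPM (0.56, SE 0.23, edgeR adjusted p = 0.42). Adcy2 in these nuclei had 0.99 (SE 0.32) and Adcy7 had 0.85 (SE 0.36). Adcy2 and Prkacb were also higher in RPC in tumor-like nuclei, at an edgeR unadjusted p under 0.05. Endothelial-like nuclei held the neuroendocrine markers at 64.0% to 79.6% of their tumor-like level. The part of tumor RNA in these endothelial values was not tested. Peptide clearance had 3 of 5 genes tested in endothelial-like nuclei, with none called by edgeR. All 3 had a negative log2 fold change, 2 of them without overlap and 1 at an unadjusted p under 0.05. The share of all genes lower without overlap was not counted in this class. Ackr3, a scavenger receptor that takes up adrenomedullin, was at 30.7, 46.7, 29.9 and 24.5 CPM in endothelial-like nuclei, lower in both RPC animals (-0.56, SE 0.37, edgeR adjusted p = 0.59), and below 1 CPM in tumor-like nuclei.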
